A study of Mus musculus with 36 samples.

Results

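The genes described here are the chemokines and their receptors, chosen by name from the mRNA table of mouse left ventricles after myocardial infarction (MI). A gene was a member where its symbol was that of a chemokine ligand (Ccl, Cxcl, Cx3cl or Xcl with a number) or of a receptor (Ccr, Cxcr, Cx3cr, Xcr or Ackr with a number). Ccrl and Ccrn genes were left out. The rule found 54 of 16415 genes, namely 34 ligands, 17 signalling receptors and 3 atypical receptors, and it used no measured value. C57BL/6 mice had their left anterior descending coronary artery ligated (MI) or had the same operation without the occlusion (sham). Left ventricles were taken 1 day, 1 week or 8 weeks later. The groups were MI at 1 day, sham at 1 day, MI at 1 week, sham at 1 week, MI at 8 weeks and sham at 8 weeks, with 3 libraries in each and 18 in all. Every group, sham included, carried the chest operation. Per the labels each library held RNA pooled from left ventricles. The number of animals behind a library is not given in the sources used here, so the p-values measure the spread between libraries, which may be technical.

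Chemokines are small secreted proteins that guide the movement of leukocytes by binding receptors coupled to G proteins, and they are sorted by the spacing of their first cysteines into CC, CXC, CX3C and XC classes. Most inflammatory ligands are made by injured tissue cells and by leukocytes already there, whereas homeostatic ligands such as Cxcl12, Ccl19 and Ccl21 are made steadily by stromal, endothelial and lymphatic cells. Atypical receptors bind chemokines without the usual G protein signal and remove or move them. In the infarcted heart the family is known for guiding the successive entry of neutrophils, monocytes and lymphocytes.

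The promoters of 3 inducible CXC ligands are shown because their mRNAs stood high in MI libraries at 1 day, and because each is a textbook target of NF-kB or interferon signalling. Each run is the 250 bases before the annotated start, from RefSeq (GRCm38.p6), 5′ to 3′ on the gene's strand, and capitals mark a motif. The letters searched, on both strands, were GGNNTTTCC (a kappaB-like site) and GAAANNGAA (an interferon response element), and the marked matches did not overlap one another.
Cxcl1, chr5:90890995-90891244, plus strand: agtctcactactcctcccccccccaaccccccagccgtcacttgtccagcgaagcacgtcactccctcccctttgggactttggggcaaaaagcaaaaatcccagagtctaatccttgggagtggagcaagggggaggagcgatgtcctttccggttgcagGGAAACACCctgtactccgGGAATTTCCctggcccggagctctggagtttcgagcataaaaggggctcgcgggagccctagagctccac
Cxcl2, chr5:90903649-90903898, plus strand: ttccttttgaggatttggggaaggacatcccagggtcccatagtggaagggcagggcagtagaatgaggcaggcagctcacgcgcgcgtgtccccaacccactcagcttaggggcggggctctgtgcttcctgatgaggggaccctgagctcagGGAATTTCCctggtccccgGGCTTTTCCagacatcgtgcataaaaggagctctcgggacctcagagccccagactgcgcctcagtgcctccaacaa
Cxcl10, chr5:92348890-92349139, minus strand: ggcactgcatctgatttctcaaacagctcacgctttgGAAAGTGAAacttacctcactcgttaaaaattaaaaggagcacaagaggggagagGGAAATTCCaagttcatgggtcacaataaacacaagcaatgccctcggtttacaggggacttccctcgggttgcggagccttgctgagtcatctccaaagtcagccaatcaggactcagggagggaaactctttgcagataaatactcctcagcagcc
The kappaB-like letters were found in 1619 of 32851 such promoters (4.93%), and among the 47 promoters of 40 members in those of Cxcl1, Cxcl2, Cxcl9, Cxcl10, Ccl9, Ccr3 and Ackr4. The interferon letters were found in 2342 promoters (7.13%), among them those of Cxcl9, Cxcl10, Cxcl14, Ccl3, Ccl19 and Ccr2. In Cxcl1 the kappaB-like matches began 89 bases (read on the minus strand) and 70 bases before the start, and in Cxcl2 they began 96 and 77 bases before it. Cxcl10 held the interferon letters 213 bases and a kappaB-like match on the minus strand 158 bases before its start. A match describes these letters and was not tested as a binding site.

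Levels are FPKM, fragments of a gene per kilobase of its transcript and scaled to the mapped fragments of the library, so they can be set side by side between genes. Cardiomyocyte markers (12 genes) were present in every library, as the labelled tissue should have, and summed to 14501 to 17877 FPKM in MI libraries, against 39847 to 42830.5 FPKM in sham libraries at 1 day. Their sums were 2879 to 9121 FPKM in MI libraries, against 42935 to 48264 FPKM in sham libraries at 1 week and 16124 to 38526 FPKM in MI libraries, against 45236 to 46783 FPKM in sham libraries at 8 weeks. Over the 12858 genes tested, the median difference between MI and sham was 0.09 at 1 day, 0.79 at 1 week and 0.52 at 8 weeks on the log2(FPKM + 1) scale, so some later differences are also given relative to that median. In bulk tissue, more cells of a type and more RNA per cell cannot be told apart. The MI libraries of 8 weeks differed most among themselves. Adipocyte markers (7 genes) summed to 65.5, 390.2 and 1487 FPKM and mesothelial markers (6 genes) to 13.3, 26.3 and 200.4 FPKM in MI libraries 1, 2 and 3 of that stage. A lung epithelial list of 5 genes, chosen after its values were seen, summed to 1.53, 29.8 and 3.04 FPKM in the same libraries. The 8-week results were therefore also run without MI libraries 2 and 3, a fit in which the lone MI library is assumed to vary like the other groups.

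Of the 54 members, 40 reached 1 FPKM in at least 3 libraries and entered the test across all genes (28 ligands and 12 receptors), and 14 did not. Some of the 40, among them Cxcl2, Cxcr2 and Cxcr3, were below 1 FPKM in every sham library. These passed the filter only through MI libraries, where they were high, so the filter favours counts of members called higher. At 1 day 30 of the 40 were higher in MI (75.0%, where 39.7% of all genes tested were higher) and 5 were lower (30.6% of all genes tested were lower). The 1-week comparison called 32 higher (80.0%, where 72.8% of all genes tested were higher), a share close to that of all genes, and 1 lower (16.5% of all genes tested were lower). The 8-week comparison called 35 higher (87.5%, where 70.4% of all genes tested were higher) and 0 lower (10.6% of all genes tested were lower). That count of 0 came from limma and was also 0 at an unadjusted p under 0.05. With median-ratio scaling and with quantile normalization limma called 2 members lower at 8 weeks, Cxcl9 and Ackr3. At 1 day each of these scalings called 6 members lower, the added member being Ccl19. The median difference of the tested members was 1.57 at 1 day, 1.66 at 1 week and 1.59 at 8 weeks on the log2 scale, beside the medians of all genes given above.

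The balance of calls at 1 week moved with the scaling. It was 32 higher and 1 lower as deposited, 26 higher and 6 lower after median-ratio scaling, and 24 higher and 7 lower after quantile normalization. Besides Ackr3, the members called lower at 1 week under both other scalings were Cxcl9, Cxcl14, Ccl11, Ccl21c and Ccl27a, none of which passed the test as deposited.

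**Figure D1:**
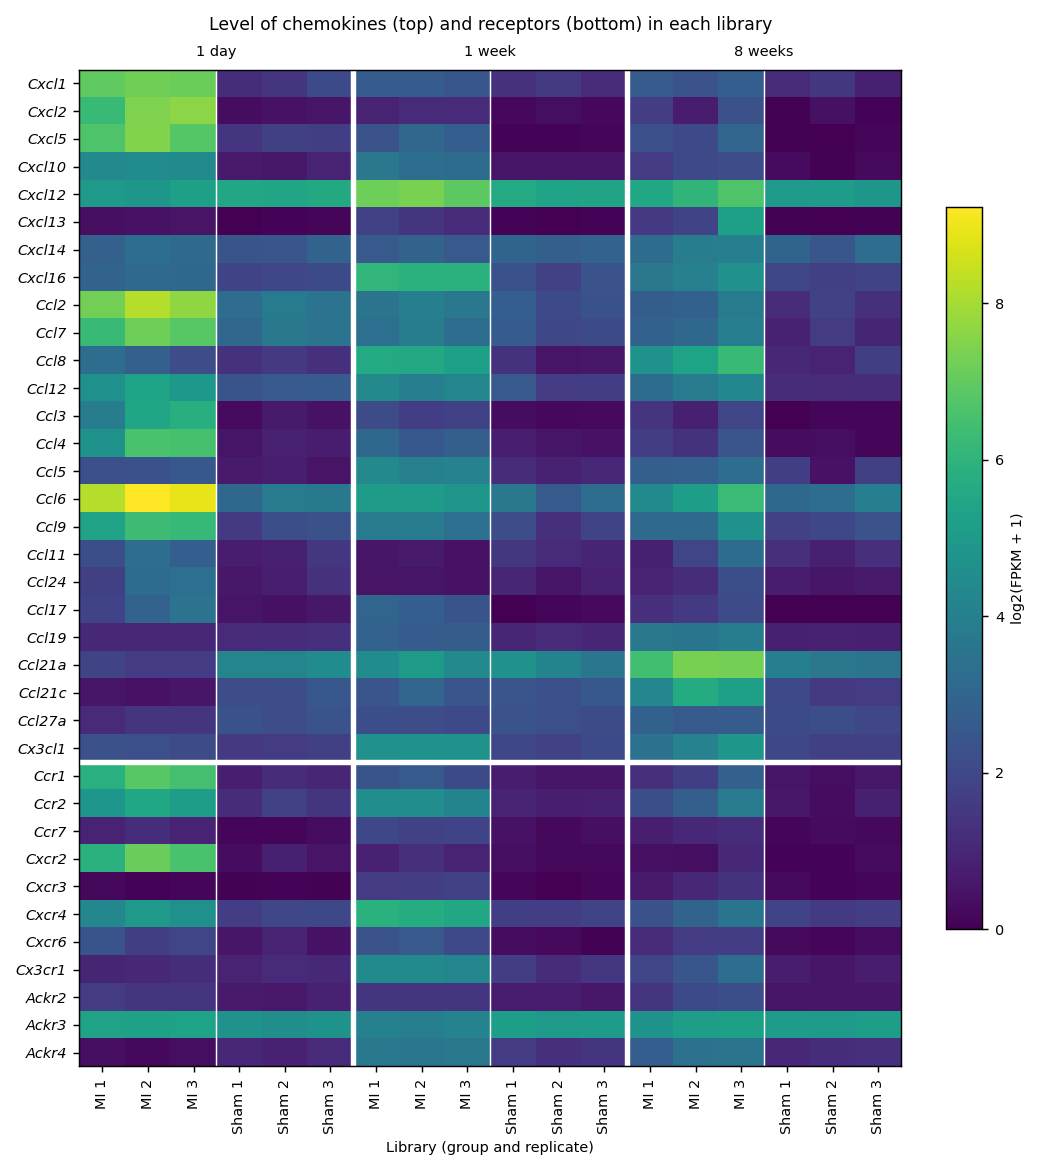
Level of 36 members whose values are given by library, as log2(FPKM + 1), in 18 libraries (columns, MI left of sham within each stage), with ligands above the thick horizontal line and receptors below it. Ccl6 was brightest in the MI libraries of 1 day (up to 602 FPKM), Cxcl12, Cxcl16 and Cxcr4 in those of 1 week, and Ccl21a in those of 8 weeks.

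The tested members were split by the stage of their highest MI mean. That stage was 1 day for 15 ligands, 3 signalling receptors (Cxcr2, Ccr1 and Ccr2) and the atypical receptor Ackr3. It was 1 week for 6 ligands, 6 signalling receptors and Ackr4, and 8 weeks for 7 ligands, 0 signalling receptors and Ackr2. Without MI 8-week libraries 2 and 3 it changed for 2 members, to 1 week for Ccl8 and to 1 day for Ackr2. Leaving out 1 MI library at a time, the stage of Ccl8 also turned to 1 week without 8-week library 3 or 1-week library 3, that of Ccl17 without 1-day library 3, and that of Ccl22 without 1-day library 2 or 3. The MI effect (MI minus sham) was also compared between stages. From 1 day to 1 week it became larger for 17 members (60.0% of all genes tested had a larger effect) and smaller for 15 (11.8% of all genes tested had a smaller effect). The 15 were the ligands Cxcl1, Cxcl2, Cxcl5, Cxcl10, Ccl2, Ccl3, Ccl4, Ccl6, Ccl7, Ccl9, Ccl11 and Ccl24 and the receptors Ccr1, Cxcr2 and Ackr3, of which Cxcl5 and Cxcl10 did not pass with a pseudocount of 0.1. From 1 week to 8 weeks it became larger for 7 members (17.1% of all genes tested had a larger effect) and smaller for 11 (29.9% of all genes tested had a smaller effect), 7 of the 11 being receptors. Among these receptors the call was lost under 9 alternatives for Ccr2, 7 for Cx3cr1, 2 for Cxcr6 and 1 for Ccr7. Cxcr3 and Cxcr4 kept it under every alternative run. After median-ratio scaling the counts were 11 larger and 20 smaller in the first interval, and 10 larger and 8 smaller in the second.

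**Figure D2:**
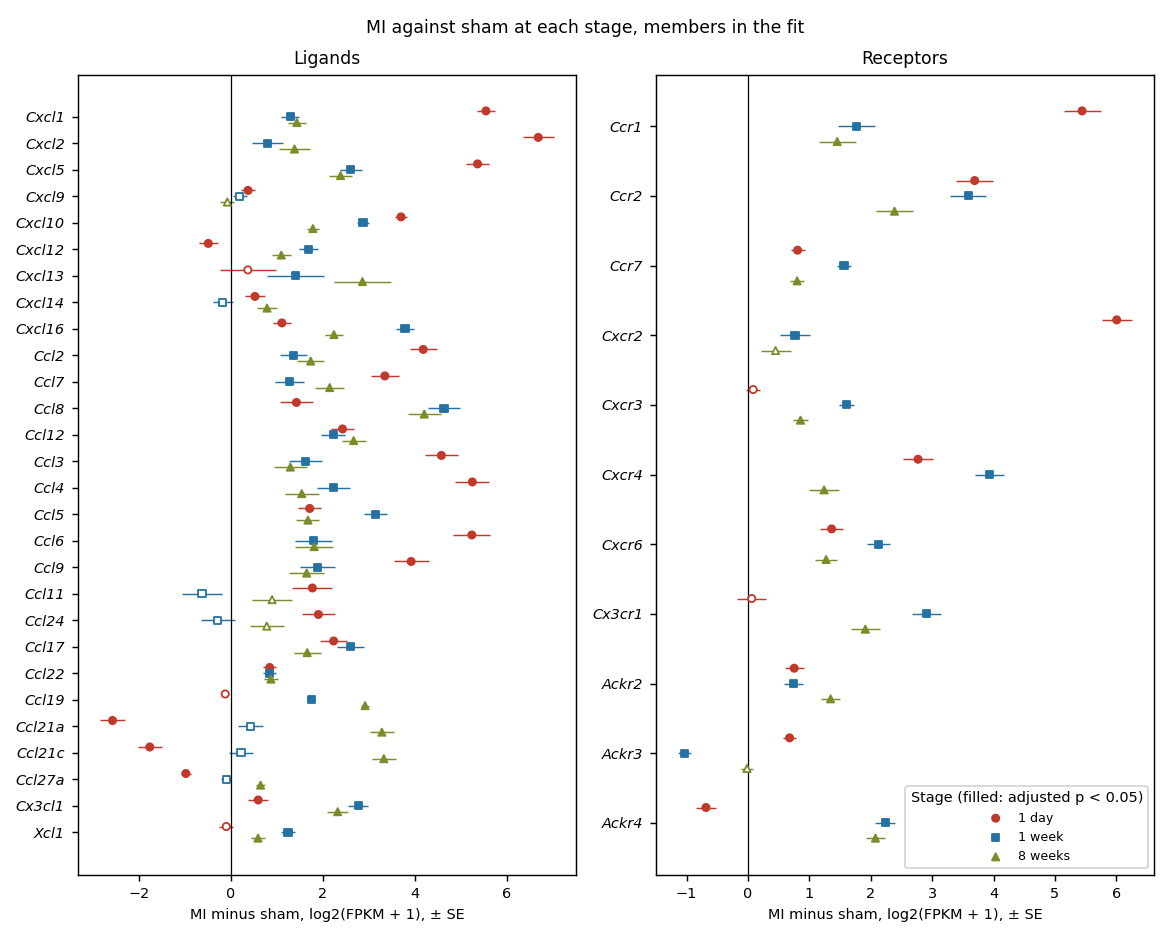
Difference between MI and sham for 39 tested members at 1 day (circles), 1 week (squares) and 8 weeks (triangles), on the log2(FPKM + 1) scale with its standard error. Filled symbols passed an adjusted p of 0.05 in limma, and Cxcl2 reached 6.69 and Cxcr2 6.01 at 1 day, whereas Ccl21a lay at -2.58 at 1 day and 3.28 at 8 weeks.

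Neutrophil attractants and their receptor were among the largest rises of 1 day. Cxcl1, a ligand of Cxcr2 made by many injured cells, had 126, 149 and 141 FPKM in the MI libraries, against 1.34, 1.69 and 3.17 FPKM in the sham libraries at 1 day. Cxcl2, its close relative made largely by myeloid cells, had 75.9, 174 and 199 FPKM in the MI libraries, against 0.227, 0.365 and 0.459 FPKM in the sham libraries. Cxcl5, a further Cxcr2 ligand known from epithelial cells and platelets, had 102, 180.1 and 109.5 FPKM in the MI libraries, against 1.59, 2.4 and 2.3 FPKM in the sham libraries. In each of the 3 genes the lowest MI library lay far above the highest sham library. The log2 difference at 1 day was 5.55 ± 0.20 (SE, limma adjusted p = 4.36e-12) for Cxcl1, 6.69 ± 0.34 (SE, limma adjusted p = 1.55e-10) for Cxcl2 and 5.37 ± 0.24 (SE, limma adjusted p = 5.21e-11) for Cxcl5.

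Cxcr2, the receptor that neutrophils use for these ligands, had 59.1, 138 and 94.7 FPKM in the MI libraries, against 0.227, 0.77 and 0.386 FPKM in the sham libraries at 1 day. This was a log2 difference of 6.01 ± 0.24 (SE, limma adjusted p = 1.71e-11), and MI library 1 was the lowest of its group, as it was for Cxcl1, Cxcl2 and Cxcl5. One week after the operation Cxcr2 was low in all libraries, with 0.808, 1.36 and 0.913 FPKM in MI and 0.255, 0.145 and 0.153 FPKM in sham libraries. The MI effect on Cxcr2 changed by -5.24 ± 0.35 (SE, limma adjusted p = 1.37e-08) between these stages. Its 1-week difference of 0.77 passed the test as deposited and did not pass after median-ratio scaling or quantile normalization. At 8 weeks the Cxcr2 difference of 0.45 did not pass (limma adjusted p = 0.101), although all MI libraries lay above all sham libraries. It passed with a pseudocount of 0.1 (1.47, limma adjusted p = 0.00684) and without MI 1-day library 1 (0.45, limma adjusted p = 0.0434).

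The ligands of Cxcr2 stayed above sham at low levels in the later stages. Cxcl5 had 4.11, 7.21 and 5.82 FPKM in MI and 0.0563, 0.0754 and 0.111 FPKM in sham libraries at 1 week. Its 8-week levels were 3.78, 3.09 and 7.15 FPKM in MI and 0.0366, 0 and 0.081 FPKM in sham libraries. The 1-week call of Cxcl1 (1.29) was lost with quantile normalization (0.43, limma adjusted p = 0.062). That of Cxcl2 (log2 difference 0.79, limma adjusted p = 0.0368) was lost without MI 1-week library 2 or 3 or without any 1 of the sham 1-week libraries (limma adjusted p of 0.0551 to 0.0846), and under both other scalings. Neutrophil markers (13 genes, all 13 higher at 1 day, S100a8 and S100a9 at the top) summed to 6309 to 10335 FPKM in MI libraries, against 20.3 to 40.9 FPKM in sham libraries at 1 day. At 1 week they summed to 69.3 to 97.5 FPKM in MI libraries, against 16.2 to 39.7 FPKM in sham libraries. Their part in the levels of the Cxcr2 group was not tested.

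The monocyte chemoattractant proteins draw monocytes out of bone marrow and blood, and those that act through Ccr2 (Ccl2, Ccl7 and Ccl12) had their highest MI mean at 1 day. At 1 day Ccl2, the best known of them, had 152, 292 and 209 FPKM in the MI libraries, against 8.77, 13 and 10.4 FPKM in the sham libraries. Ccl7, its close relative, had 75.6, 147 and 112 FPKM in the MI libraries, against 7.21, 11.9 and 10.4 FPKM in the sham libraries. For both genes every MI library lay above every sham library, and the log2 difference was 4.19 ± 0.29 (SE, limma adjusted p = 4.55e-09) for Ccl2 and 3.35 ± 0.31 (SE, limma adjusted p = 1e-07) for Ccl7. By 1 week Ccl2 had 10.7, 14.9 and 11.8 FPKM in MI and 5.84, 3.19 and 3.99 FPKM in sham libraries. The 1-week calls of Ccl2 (1.35 ± 0.29 SE, limma adjusted p = 0.000384) and Ccl7 (1.27 ± 0.31 SE, limma adjusted p = 0.00109) were lost under both other scalings.

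Ccl12, a mouse relative of Ccl2, was higher in MI at each stage. It had 24, 40.2 and 29.3 FPKM in the MI libraries, against 4.24, 5.02 and 5.36 FPKM in the sham libraries at 1 day. The 1-week values of Ccl12 were 19.4, 14.5 and 18 FPKM in MI and 4.93, 2.09 and 2.23 FPKM in sham libraries, and those of 8 weeks were 8.62, 13.3 and 19.1 FPKM in MI and 1.27, 1.12 and 1.23 FPKM in sham libraries. Its MI mean and its sham mean were both lower by value at each later stage, and the test of a change in its MI effect gave a limma adjusted p of 0.631 between 1 day and 1 week and of 0.325 between 1 week and 8 weeks, which does not show that the effects were equal. With median-ratio scaling both tests passed (-0.97, limma adjusted p = 0.00996 for the first and 0.75, limma adjusted p = 0.0492 for the second).

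Ccl8, a protein of this family that in mice acts through Ccr8, came later. At 1 day Ccl8 had 9.06, 6.21 and 3.51 FPKM in the MI libraries, against 1.47, 1.89 and 1.38 FPKM in the sham libraries. At 1 week Ccl8 had 48.5, 46.1 and 35.7 FPKM in the MI libraries, against 1.57, 0.432 and 0.516 FPKM in the sham libraries. The 8-week values were 24.9, 40.5 and 76.5 FPKM in MI and 1.11, 0.907 and 2.28 FPKM in sham libraries, with MI library 3 at the top. The MI mean of Ccl8 was highest at 8 weeks with all libraries and at 1 week without MI 8-week library 3. The log2 difference of Ccl8 was 1.42 ± 0.35 (SE, limma adjusted p = 0.002) at 1 day, 4.64 ± 0.35 (SE, limma adjusted p = 6.98e-09) at 1 week and 4.21 ± 0.35 (SE, limma adjusted p = 8.64e-08) at 8 weeks. Relative to the median gene the later differences were 3.84 and 3.68.

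Ccr2, the receptor of inflammatory monocytes, had 27.8, 44.6 and 34 FPKM in the MI libraries, against 1.24, 2.53 and 1.69 FPKM in the sham libraries at 1 day. Its 1-week values were 22, 22.2 and 17.2 FPKM in MI and 0.872, 0.706 and 0.755 FPKM in sham libraries, and its 8-week values were 3.64, 6.02 and 13.2 FPKM in MI and 0.511, 0.231 and 0.743 FPKM in sham libraries. The MI libraries lay above all sham libraries of their stage. The log2 difference of Ccr2 was 3.69 ± 0.30 (SE, limma adjusted p = 2.16e-08) at 1 day, 3.58 ± 0.30 (SE, limma adjusted p = 1.62e-08) at 1 week and 2.39 ± 0.30 (SE, limma adjusted p = 3.77e-06) at 8 weeks. Macrophage and monocyte markers (19 genes measured, Lyz2 and the C1q genes at the top) summed to 959 to 1602 FPKM in MI libraries, against 208 to 304 FPKM in sham libraries at 1 day. Their sums were 4116 to 4860.1 FPKM in MI libraries, against 190.2 to 327 FPKM in sham libraries at 1 week and 950.1 to 2446 FPKM in MI libraries, against 180.4 to 258 FPKM in sham libraries at 8 weeks, and their part in the Ccr2 level was not tested.

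Ccl3, Ccl4, Ccl5, Ccl6 and Ccl9, a group of CC ligands that holds the macrophage inflammatory proteins, formed the largest part of the ligand signal in MI at 1 day. Ccl6, a mouse ligand of Ccr1 made by myeloid cells, had 291, 602 and 489.7 FPKM in the MI libraries, against 7.62, 12.9 and 12.3 FPKM in the sham libraries, the highest values of any chemokine in the MI libraries of that stage. Ccl9, its neighbour in the genome and also a Ccr1 ligand, had 38.8, 79.7 and 72 FPKM in the MI libraries, against 2.0, 3.62 and 3.85 FPKM in the sham libraries. The log2 difference was 5.24 ± 0.41 (SE, limma adjusted p = 1.46e-08) for Ccl6 and 3.92 ± 0.38 (SE, limma adjusted p = 1.67e-07) for Ccl9. Ccl6 was still higher in MI at 8 weeks (1.81 ± 0.41 SE, limma adjusted p = 0.000815), a call that was lost without MI 8-week libraries 2 and 3 (0.92, limma adjusted p = 0.0795).

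The macrophage inflammatory proteins Ccl3 and Ccl4, attractants of monocytes and T cells, rose with them. At 1 day Ccl3 had 13.9, 42.4 and 54.1 FPKM in the MI libraries, against 0.194, 0.592 and 0.366 FPKM in the sham libraries. Ccl4 had 25.9, 93.8 and 92.4 FPKM in the MI libraries, against 0.434, 0.816 and 0.644 FPKM in the sham libraries. MI library 1 was the lowest of its group for both genes, yet it lay far above sham. The log2 differences were 4.58 ± 0.35 (SE, limma adjusted p = 1.38e-08) for Ccl3 and 5.25 ± 0.37 (SE, limma adjusted p = 4.71e-09) for Ccl4. Ccl3 and Ccl4 overlap in the annotation and the use of strand is not given in the sources used here, so reads of the overlap could not be assigned with certainty.

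Ccl5, a ligand made by T and NK cells, peaked at 1 week. At 1 day Ccl5 had 3.8, 3.98 and 4.73 FPKM in the MI libraries, against 0.603, 0.728 and 0.406 FPKM in the sham libraries. At 1 week Ccl5 had 19.3, 15.4 and 16 FPKM in the MI libraries, against 1.23, 0.814 and 1.05 FPKM in the sham libraries. Its log2 difference was 1.71 ± 0.25 (SE, limma adjusted p = 1.5e-05) at 1 day, 3.14 ± 0.25 (SE, limma adjusted p = 1.08e-08) at 1 week and 1.67 ± 0.25 (SE, limma adjusted p = 2.19e-05) at 8 weeks. The larger effect at 1 week than at 1 day (1.43 ± 0.35 SE, limma adjusted p = 0.0021) did not pass with median-ratio scaling or with a pseudocount of 0.1. T and NK cell markers (15 genes measured) summed to 6.71 to 7.83 FPKM in MI libraries, against 3.3 to 4.19 FPKM in sham libraries at 1 day. Their 1-week sums were 19.5 to 25.1 FPKM in MI libraries, against 4.13 to 4.78 FPKM in sham libraries, and their part in the Ccl5 level was not tested.

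Ccr1, a receptor of Ccl3, Ccl6 and Ccl9 carried by neutrophils and monocytes, had 57.7, 114 and 91.3 FPKM in the MI libraries, against 0.708, 1.25 and 0.978 FPKM in the sham libraries at 1 day. Its 1-week values were 4.25, 5.19 and 3.17 FPKM in MI and 0.624, 0.439 and 0.461 FPKM in sham libraries. The MI effect on Ccr1 was 5.44 ± 0.30 (SE, limma adjusted p = 3.96e-10) at 1 day and changed by -3.67 ± 0.43 (SE, limma adjusted p = 2.27e-06) from 1 day to 1 week.

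The interferon-inducible ligands of Cxcr3 were higher in MI by value at 1 day and their groups did not overlap at that stage. Cxcl10, an attractant of T and NK cells, had 19.5, 21.1 and 20.6 FPKM in the MI libraries, against 0.604, 0.508 and 0.84 FPKM in the sham libraries at 1 day. Its 1-week values were 11.7, 9.0 and 8.62 FPKM in MI and 0.455, 0.456 and 0.478 FPKM in sham libraries, and its 8-week values were 2.15, 3.11 and 3.56 FPKM in MI and 0.207, 0.0348 and 0.164 FPKM in sham libraries. Its log2 difference was 3.70 ± 0.13 (SE, limma adjusted p = 3.72e-12) at 1 day, 2.87 ± 0.13 (SE, limma adjusted p = 8.64e-11) at 1 week and 1.78 ± 0.13 (SE, limma adjusted p = 2.41e-08) at 8 weeks. Cxcl9, a ligand induced by interferon gamma, had 1.27, 1.93 and 1.53 FPKM in the MI libraries, against 1.02, 0.848 and 1.1 FPKM in the sham libraries at 1 day. That call (0.37 ± 0.15 SE, limma adjusted p = 0.0429) was lost with no filter, with quantile normalization, and without MI 1-day library 2 or 3, any 1 of the sham 1-day libraries, sham 1-week library 2 or 3, or sham 8-week library 1 (limma adjusted p of 0.0502 to 0.175 over these libraries). At 1 week Cxcl9 had 1.65, 2.05 and 3.26 FPKM in the MI libraries, against 2.09, 1.7 and 1.79 FPKM in the sham libraries, with overlapping groups. This difference did not pass the test as deposited (limma adjusted p = 0.254). Cxcl11 had 0.18, 0.171 and 0.234 FPKM in the MI libraries, against 0, 0.000965 and 0 FPKM in the sham libraries at 1 day, its highest stage, and was too low for the test as filtered. With no filter on low genes it was called higher in MI at 1 day (log2 difference 0.26, limma adjusted p = 1.89e-07) and at 1 week (0.072, limma adjusted p = 0.0102).

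Cxcr3, the receptor of activated T cells for these ligands, had 0.138, 0.0629 and 0.124 FPKM in the MI libraries, against 0.0407, 0.0574 and 0.0384 FPKM in the sham libraries at 1 day. That difference of 0.08 did not pass (limma adjusted p = 0.552), while Cxcl10 was at its highest. At 1 week Cxcr3 had 2.08, 2.16 and 2.56 FPKM in the MI libraries, against 0.097, 0.0195 and 0.0956 FPKM in the sham libraries, a log2 difference of 1.61 ± 0.12 (SE, limma adjusted p = 5.46e-09). By 8 weeks Cxcr3 had 0.598, 1.05 and 1.53 FPKM in MI and 0.189, 0.0667 and 0.105 FPKM in sham libraries, a difference of 0.85 ± 0.12 (SE, limma adjusted p = 1.17e-05).

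Cxcl12, a homeostatic ligand that holds progenitor cells in bone marrow and is made by stromal and endothelial cells, was the most abundant ligand of sham ventricles. At 1 day Cxcl12 had 29.8, 28.5 and 37.4 FPKM in the MI libraries, against 44.1, 43.6 and 47.9 FPKM in the sham libraries, so all MI libraries lay below all sham libraries. That difference of -0.50 ± 0.21 (SE, limma adjusted p = 0.0432) was lost with the replicate block, with no filter on low genes, without MI 1-day library 1 or 2, MI 1-week library 1 or MI 8-week library 2, and without any 1 of the sham libraries other than 1-week library 1 (limma adjusted p of 0.0501 to 0.133 over these libraries). At 1 week Cxcl12 had 145, 163 and 118 FPKM in the MI libraries, against 48.9, 40.2 and 40.5 FPKM in the sham libraries. The 1-week difference was 1.69 ± 0.21 (SE, limma adjusted p = 1.22e-06), or 0.90 relative to the median gene. By 8 weeks Cxcl12 had 45, 64.2 and 102 FPKM in MI and 31, 32.6 and 28.8 FPKM in sham libraries, a difference of 1.09 ± 0.21 (SE, limma adjusted p = 0.000203). The change of its MI effect from 1 day to 1 week was 2.19 ± 0.29 (SE, limma adjusted p = 9.92e-06). Fibroblast markers (12 genes, collagens at the top) summed to 582 to 641 FPKM in MI libraries, against 555 to 759 FPKM in sham libraries at 1 day. Their sums were 14218 to 17039 FPKM in MI libraries, against 682 to 829 FPKM in sham libraries at 1 week and 2329 to 7015 FPKM in MI libraries, against 512 to 534 FPKM in sham libraries at 8 weeks, and their part in the Cxcl12 level was not tested.

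Both receptors of Cxcl12 changed, in different ways. Cxcr4, the signalling receptor, had 18.4, 31.2 and 24 FPKM in the MI libraries, against 2.2, 2.87 and 2.97 FPKM in the sham libraries at 1 day. At 1 week Cxcr4 had 58, 51.5 and 44.7 FPKM in the MI libraries, against 2.32, 2.21 and 2.72 FPKM in the sham libraries, and its 8-week values were 3.92, 6.73 and 11.1 FPKM in MI and 2.66, 1.96 and 2.23 FPKM in sham libraries. Cxcr4 differed by 2.77 ± 0.24 (SE, limma adjusted p = 5.58e-08) at 1 day, 3.93 ± 0.24 (SE, limma adjusted p = 1e-09) at 1 week and 1.24 ± 0.24 (SE, limma adjusted p = 0.000257) at 8 weeks. Ackr3, the atypical receptor that takes up Cxcl12, had 39.4, 38.4 and 40.4 FPKM in the MI libraries, against 25.3, 22.6 and 25 FPKM in the sham libraries at 1 day. At 1 week Ackr3 had 15.5, 14.4 and 16.4 FPKM in the MI libraries, against 33.9, 30.3 and 33.6 FPKM in the sham libraries. It was higher in MI at 1 day (0.68 ± 0.10 SE, limma adjusted p = 2.71e-05) and lower in MI at 1 week (-1.03 ± 0.10 SE, limma adjusted p = 1.46e-07), and the groups did not overlap at either stage. By 8 weeks Ackr3 had 26, 35.1 and 36.9 FPKM in MI and 33.2, 30.7 and 34.3 FPKM in sham libraries. That difference of -0.02 did not pass as deposited (limma adjusted p = 0.887), and Ackr3 was called lower in MI with median-ratio scaling (-0.73, limma adjusted p = 1.04e-06), with quantile normalization and without MI 8-week libraries 2 and 3.

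**Figure D3:**
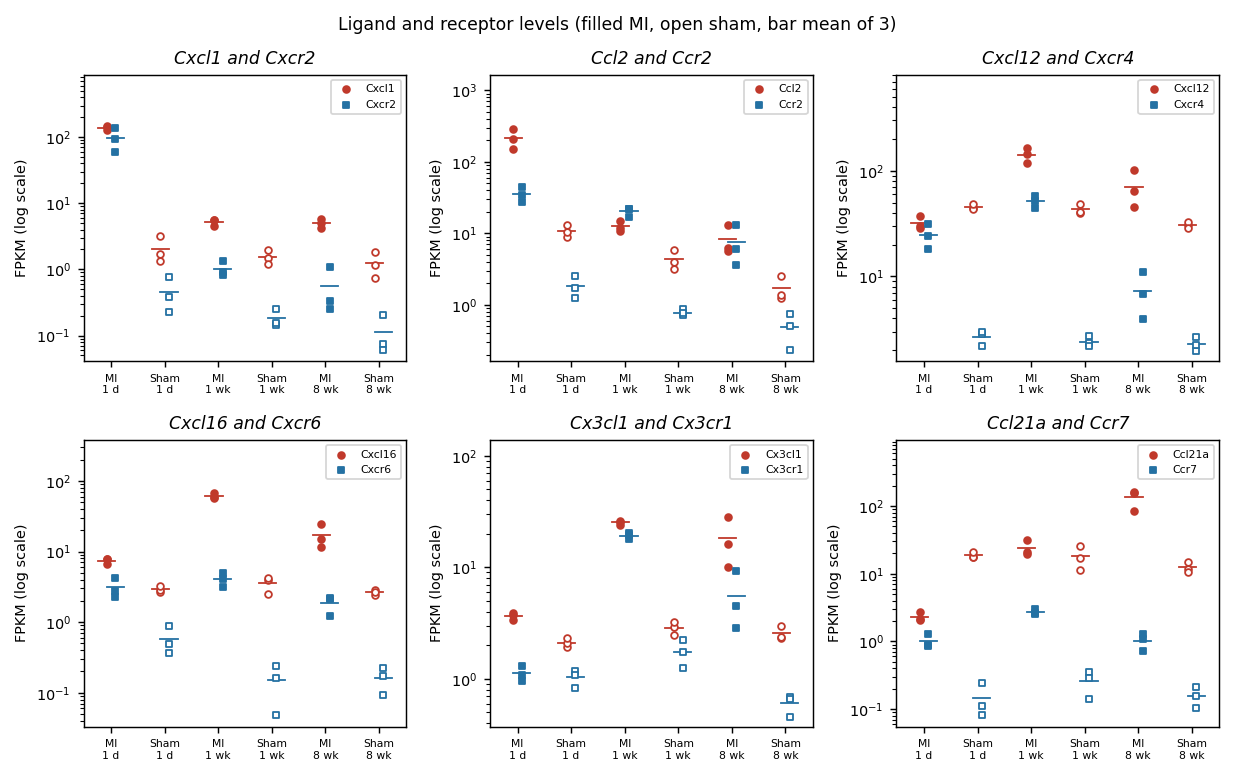
Level of 6 ligands (circles) and their receptors (squares) in FPKM on a log axis, for 3 MI libraries (filled) and 3 sham libraries (open) at 1 day (1 d), 1 week (1 wk) and 8 weeks (8 wk), with a bar at each mean. Cxcl1 and Cxcr2 were high together in MI at 1 day, and Cxcl12 and Cxcr4 at 1 week, whereas Ccl21a was highest in MI at 8 weeks (84.9, 163 and 157 FPKM) and Ccr7 in MI at 1 week (3.04, 2.53 and 2.61 FPKM).

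The chemokines that are anchored in the membrane were highest in MI at 1 week. Cxcl16, a membrane-bound ligand of Cxcr6 that also binds oxidised lipoprotein, had 6.63, 7.95 and 7.74 FPKM in the MI libraries, against 2.64, 2.89 and 3.23 FPKM in the sham libraries at 1 day. At 1 week Cxcl16 had 66.4, 59.3 and 58.2 FPKM in the MI libraries, against 4.01, 2.51 and 4.18 FPKM in the sham libraries. Its log2 difference at 1 week was 3.79 ± 0.19 (SE, limma adjusted p = 2.27e-10), or 3.00 relative to the median gene, and the change since 1 day was 2.68 ± 0.27 (SE, limma adjusted p = 6.82e-07). By 8 weeks Cxcl16 had 11.6, 15.1 and 24.4 FPKM in MI and 2.89, 2.4 and 2.7 FPKM in sham libraries. Cxcr6, its receptor on T and NKT cells, had 4.29, 2.28 and 2.77 FPKM in the MI libraries, against 0.491, 0.891 and 0.368 FPKM in the sham libraries at 1 day. At 1 week Cxcr6 had 4.09, 4.95 and 3.14 FPKM in the MI libraries, against 0.242, 0.162 and 0.0477 FPKM in the sham libraries. The difference of Cxcr6 was 1.36 ± 0.18 (SE, limma adjusted p = 6.64e-06) at 1 day and 2.12 ± 0.18 (SE, limma adjusted p = 2.56e-08) at 1 week, and the test of that change (0.76 ± 0.26 SE, limma adjusted p = 0.016) did not pass after median-ratio scaling or quantile normalization.

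Cx3cl1 (fractalkine), tethered to endothelium by a mucin stalk, had 3.87, 3.76 and 3.4 FPKM in the MI libraries, against 1.92, 2.08 and 2.34 FPKM in the sham libraries at 1 day. At 1 week Cx3cl1 had 24.2, 26.1 and 25.7 FPKM in the MI libraries, against 2.94, 2.46 and 3.23 FPKM in the sham libraries. The 8-week values of Cx3cl1 were 10.2, 16.1 and 28.3 FPKM in MI and 2.97, 2.34 and 2.38 FPKM in sham libraries. Its log2 difference was 2.77 ± 0.22 (SE, limma adjusted p = 1.23e-08) at 1 week and 2.32 ± 0.22 (SE, limma adjusted p = 2.93e-07) at 8 weeks. The 1-day call (0.59 ± 0.22 SE, limma adjusted p = 0.0275) was lost without MI 1-day library 1 or 2 or sham 1-day library 1 or 2 (limma adjusted p of 0.0604 to 0.0767) and with quantile normalization (0.35, limma adjusted p = 0.0702).

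Cx3cr1, the receptor of Cx3cl1 on patrolling monocytes and resident macrophages, had 0.953, 1.08 and 1.31 FPKM in the MI libraries, against 0.831, 1.17 and 1.09 FPKM in the sham libraries at 1 day, where the groups overlapped. At 1 week Cx3cr1 had 19.6, 20.4 and 17.8 FPKM in the MI libraries, against 2.22, 1.25 and 1.72 FPKM in the sham libraries. By 8 weeks Cx3cr1 had 2.83, 4.54 and 9.2 FPKM in MI and 0.69, 0.458 and 0.655 FPKM in sham libraries. Cx3cr1 differed by 2.91 ± 0.24 (SE, limma adjusted p = 1.5e-08) at 1 week and 1.91 ± 0.24 (SE, limma adjusted p = 3.99e-06) at 8 weeks. MI library 3 of 8 weeks was the highest of its group for Cx3cr1 and Cx3cl1, as for Cxcl16 and Ccr2.

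Ccl21a and Ccl21c, ligands of Ccr7, were lower in MI at 1 day and higher in MI at 8 weeks. At 1 day Ccl21a, a ligand of lymphatic vessels and lymphoid stroma that guides dendritic and naive T cells, had 2.71, 2.08 and 2.11 FPKM in the MI libraries, against 17.6, 17.7 and 21 FPKM in the sham libraries. That was a log2 difference of -2.58 ± 0.27 (SE, limma adjusted p = 3.31e-07). At 1 week Ccl21a had 20.9, 31.4 and 19.5 FPKM in the MI libraries, against 25.7, 17.1 and 11.5 FPKM in the sham libraries, and the groups overlapped (limma adjusted p = 0.144). At 8 weeks Ccl21a had 84.9, 163 and 157 FPKM in the MI libraries, against 15, 11.8 and 10.8 FPKM in the sham libraries, a difference of 3.28 ± 0.27 (SE, limma adjusted p = 5.88e-08) or 2.76 relative to the median gene. Ccl21c, a near-identical copy, had 18.6, 50.1 and 37.1 FPKM in the MI libraries, against 3.08, 2.0 and 2.08 FPKM in the sham libraries at 8 weeks, a difference of 3.33 ± 0.26 (SE, limma adjusted p = 3.9e-08). Its 1-day values were 0.479, 0.366 and 0.483 FPKM in MI and 3.6, 3.59 and 4.66 FPKM in sham libraries. That was a difference of -1.77 ± 0.26 (SE, limma adjusted p = 1.41e-05). Ccl21b, a further copy, did not exceed 0.00198 FPKM. Reads of the copies cannot be split with certainty, so the separate level of each copy is uncertain.

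Ccl19, the other ligand of Ccr7, had 1.09, 1.02 and 1.09 FPKM in the MI libraries, against 1.18, 1.24 and 1.36 FPKM in the sham libraries at 1 day. That difference of -0.13 did not pass as deposited (limma adjusted p = 0.193), although all MI libraries lay below all sham libraries. Ccl19 was called lower at 1 day with median-ratio scaling (-0.20, limma adjusted p = 0.0217) and quantile normalization (-0.26, limma adjusted p = 0.0116). Its 1-week values were 6.44, 5.5 and 5.55 FPKM in MI and 1.01, 1.12 and 0.972 FPKM in sham libraries, and its 8-week values were 11.9, 11.2 and 14.2 FPKM in MI and 0.739, 0.784 and 0.775 FPKM in sham libraries. The 8-week difference was 2.92 ± 0.09 (SE, limma adjusted p = 3.36e-12), and the change from 1 week was 1.17 ± 0.12 (SE, limma adjusted p = 1.65e-05). Without MI 8-week libraries 2 and 3, Ccl19, Ccl21a and Ccl21c still passed the test at 8 weeks. Ccl19 and Ccl21a overlap a neighbouring gene model on the opposite strand in the annotation.

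Ccr7, the receptor of these ligands on dendritic cells and naive lymphocytes, had 0.874, 1.3 and 0.857 FPKM in the MI libraries, against 0.0807, 0.109 and 0.244 FPKM in the sham libraries at 1 day. At 1 week Ccr7 had 3.04, 2.53 and 2.61 FPKM in the MI libraries, against 0.354, 0.143 and 0.288 FPKM in the sham libraries, and its 8-week values were 0.712, 1.08 and 1.29 FPKM in MI and 0.105, 0.212 and 0.154 FPKM in sham libraries. Its log2 difference was 0.81 ± 0.11 (SE, limma adjusted p = 1.05e-05) at 1 day, 1.56 ± 0.11 (SE, limma adjusted p = 4.44e-09) at 1 week and 0.80 ± 0.11 (SE, limma adjusted p = 1.38e-05) at 8 weeks, of which the 8-week call was lost with quantile normalization (0.16, limma adjusted p = 0.118). Ackr4, the atypical receptor that removes Ccl19 and Ccl21, had 0.29, 0.139 and 0.274 FPKM in the MI libraries, against 1.02, 0.804 and 1.13 FPKM in the sham libraries at 1 day, where it was lower in MI (-0.68 ± 0.16 SE, limma adjusted p = 0.00111). At 1 week Ackr4 had 11.9, 11.4 and 11.9 FPKM in the MI libraries, against 2.1, 1.42 and 1.64 FPKM in the sham libraries, and its 8-week values were 5.78, 9.77 and 10.8 FPKM in MI and 1.07, 1.31 and 1.39 FPKM in sham libraries. These were differences of 2.23 ± 0.16 (SE, limma adjusted p = 3.4e-09) at 1 week and 2.08 ± 0.16 (SE, limma adjusted p = 3.35e-08) at 8 weeks. Ackr4 overlaps Acad11 in the annotation.

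Lymphatic endothelial markers (6 genes) summed to 60.4 to 88.9 FPKM in MI libraries, against 17.5 to 22.6 FPKM in sham libraries at 1 day. Their sums were 47.5 to 54.5 FPKM in MI libraries, against 20.6 to 26 FPKM in sham libraries at 1 week and 32 to 107 FPKM in MI libraries, against 17.4 to 20.3 FPKM in sham libraries at 8 weeks. Pdpn and Lyve1 had the largest means of this list. At 1 day 3 of the 6 were higher and 1 lower, at 1 week 2 and 1, and at 8 weeks 5 and 1. Of all genes tested, 39.7%, 72.8% and 70.4% were higher. Medians of the list were 0.30, 0.41 and 1.21, where all genes had 0.09, 0.79 and 0.52. In MI libraries 1, 2 and 3 of 8 weeks the markers summed to 32, 84.5 and 107 FPKM. Ccl21a was also lowest in library 1, but highest in library 2. Macrophage, fibroblast and adipocyte sums were lowest in library 1 too, and cardiomyocyte and neutrophil sums were not. The part of the lymphatic markers in the Ccl21 levels was not tested.

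The eotaxins, which attract eosinophils through Ccr3, were higher in MI at 1 day. Ccl11 had 3.64, 9.15 and 5.76 FPKM in the MI libraries, against 0.656, 0.77 and 1.73 FPKM in the sham libraries at 1 day. Ccl24 had 2.36, 8.64 and 9.31 FPKM in the MI libraries, against 0.50, 0.717 and 1.49 FPKM in the sham libraries. The log2 difference was 1.77 ± 0.43 (SE, limma adjusted p = 0.00174) for Ccl11 and 1.90 ± 0.37 (SE, limma adjusted p = 0.000234) for Ccl24. At 1 week neither passed the test as deposited, and Ccl11 averaged 0.477 ± 0.117 FPKM in MI and 1.32 ± 0.452 FPKM in sham (SD, n = 3 each), with no overlap. Ccr3 did not exceed 0.281 FPKM in any library.

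Ccl17 and Ccl22, ligands of Ccr4 made by dendritic cells and macrophages, were higher in MI at every stage. Ccl17 had 2.61, 6.43 and 10.4 FPKM in the MI libraries, against 0.454, 0.341 and 0.513 FPKM in the sham libraries at 1 day. At 1 week Ccl17 had 6.98, 5.83 and 4.27 FPKM in the MI libraries, against 0, 0.0857 and 0.17 FPKM in the sham libraries. At 8 weeks it had 1.42, 2.0 and 3.33 FPKM in the MI libraries and was listed at 0 in all 3 sham libraries. After scaling each library by its estimated depth, its 5 values of 1 to 10 fragments lay within 0.15 of whole multiples of 0.0906 FPKM. That is the estimated worth of 1 fragment at the depth of sham 1-day library 1. The unit was fitted to these same values, so the match is no independent check. Ccl22 stayed at or below 1.3 FPKM, with log2 differences of 0.84 at 1 day, 0.83 at 1 week and 0.87 at 8 weeks, of which the 1-week call was lost with quantile normalization (0.27, limma adjusted p = 0.0673). Ccr4, their receptor, did not exceed 0.121 FPKM.

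The size of the Cxcl13 difference at 8 weeks rested on 1 library. Cxcl13, the B cell attractant that binds Cxcr5, had 1.88, 2.68 and 37.3 FPKM in the MI libraries, against 0.0277, 0 and 0.0307 FPKM in the sham libraries at 8 weeks. The difference was 2.86 ± 0.62 (SE, limma adjusted p = 0.000576), with the largest standard error of all 40 tested members at that stage, and it was 1.67 (limma adjusted p = 1.35e-07) without MI 8-week library 3. At 1 week Cxcl13 had 2.57, 1.7 and 1.14 FPKM in the MI libraries, against 0.0567, 0 and 0.0559 FPKM in the sham libraries. That call (1.40 ± 0.62 SE, limma adjusted p = 0.0421) was lost without any 1 of the MI 1-day, sham 1-week or sham 8-week libraries, MI 1-week library 1 or 2, or sham 1-day library 2 (limma adjusted p of 0.0502 to 0.117), with no filter, and under both other scalings (1.01, limma adjusted p = 0.0983 with median-ratio scaling and 0.78, limma adjusted p = 0.244 with quantile normalization). B cell markers rose in the same order of libraries at 8 weeks. In MI libraries 1, 2 and 3 Ms4a1 had 0.437, 0.981 and 4.0 FPKM and Cd79a had 1.58, 2.98 and 8.59 FPKM. The 8 genes of that list summed to 6.81, 10.6 and 29.6 FPKM. This order was not particular to B cells. Macrophage and monocyte markers summed to 950.1, 1361 and 2446 FPKM and fibroblast markers to 2329, 4815 and 7015 FPKM in these libraries. Adipocyte and mesothelial sums rose in that order too, and neutrophil, endothelial and cardiomyocyte sums did not. The part of the B cell markers in the Cxcl13 level was not tested. Cxcr5 was highest in the same library 3, at 0.907 FPKM.

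Cxcl14, a ligand of epithelium and fat whose receptor is debated, had 8.51, 13.6 and 14.6 FPKM in the MI libraries, against 6.86, 4.49 and 8.88 FPKM in the sham libraries at 8 weeks, with overlapping groups. Its 8-week difference of 0.78 ± 0.22 (SE, limma adjusted p = 0.00462) was lost under both other scalings and without MI 8-week libraries 2 and 3 (0.34, limma adjusted p = 0.306). Cxcl15, a lung chemokine of mice, was at 11.6 FPKM in MI 8-week library 2. That library also held the lung epithelial genes Ager at 20.7 FPKM and Nkx2-1 at 1.75 FPKM, where no other library exceeded 1.26 FPKM and 0.0643 FPKM for these genes. Their part in the Cxcl15 value was not tested.

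Ccl27a, a skin ligand of Ccr10, had 1.16, 1.61 and 1.71 FPKM in the MI libraries, against 3.97, 3.59 and 4.21 FPKM in the sham libraries at 1 day, a log2 difference of -0.99 ± 0.11 (SE, limma adjusted p = 5.74e-07). It overlaps Il11ra1 and has the near-identical copy Ccl27b, so its values are uncertain. Ackr2, an atypical receptor that scavenges inflammatory CC ligands, was higher in MI at each stage at low level. At 8 weeks Ackr2 had 1.59, 3.25 and 3.64 FPKM in the MI libraries, against 0.441, 0.477 and 0.47 FPKM in the sham libraries, a difference of 1.34 ± 0.16 (SE, limma adjusted p = 2e-06). Its 1-week call (0.74 ± 0.16 SE, limma adjusted p = 0.000346) was lost under both other scalings. Xcl1, the ligand of Xcr1 made by NK and CD8 T cells, did not exceed 2.28 FPKM, where 1 fragment was worth about 0.0941 FPKM. Its 1-week values were 1.32, 1.38 and 2.28 FPKM in MI and 0.0898, 0 and 0.266 FPKM in sham libraries. Xcr1, on the dendritic cells that Xcl1 attracts, did not exceed 0.538 FPKM. The other members that were not tested did not exceed 1 FPKM in any library, namely Ccl25, Ccl27b, Ccl28, Ccr6, Ccr9, Ccr10 and Ccr1l1.

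Ligands were then set beside their receptors. Of 42 pairs of listed members, 29 had both members tested, and since pairs share members they are not independent. Ligand and receptor had their highest MI mean at the same stage in 15 of the 29, of which 10 peaked together at 1 day and 5 at 1 week. In the other 14 pairs the stages differed. Without MI 8-week libraries 2 and 3 the stage was the same in 18 of the 29. Both members were called higher in 19 pairs at 1 day, in 24 at 1 week and in 24 at 8 weeks. Of all genes tested, 39.7%, 72.8% and 70.4% were higher in stage order, and these pair counts were not compared with pairs of other genes. Pairs apart in time included Cxcl10 with Cxcr3, and Ccl19 and Ccl21a with Ccr7.

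The make-up of the chemokine pool was read from the summed FPKM of the 34 ligands, since a share within a library does not move with its scaling factor. The sum at 1 day was 1021, 1914 and 1629 FPKM in the MI libraries, against 119, 138 and 149.5 FPKM in the sham libraries. One week after the operation it was 478, 498 and 409 FPKM in the MI libraries, against 142, 100.4 and 105 FPKM in the sham libraries, and at 8 weeks it was 302, 493 and 704 FPKM in the MI libraries, against 88.9, 85.2 and 92.6 FPKM in the sham libraries. In all, 33 shares were tested with the exact permutation test (two-sided), whose smallest p with 3 against 3 libraries is 0.1, so none could pass 0.05. The smallest adjusted p was 0.132. Ligands of Cxcr2 made up 27.9 ± 1.75% of the summed ligand level in MI libraries, against 3.28 ± 0.665% in sham libraries at 1 day (SD, n = 3 each, exact permutation p = 0.1). Ccl3, Ccl4, Ccl5, Ccl6 and Ccl9 made up 41.1 ± 3.91% of the summed ligand level in MI libraries, against 11.4 ± 2.21% in sham libraries at that stage (exact permutation p = 0.1). Cxcl12 alone made up 2.24 ± 0.72% of the summed ligand level in MI libraries, against 33.5 ± 2.95% in sham libraries at 1 day (exact permutation p = 0.1). Its share at 1 week was 30.7 ± 1.99% of the summed ligand level in MI libraries, against 37.7 ± 2.91% in sham libraries (exact permutation p = 0.1). Ccr7 ligands made up 0.275 ± 0.126% of the summed ligand level in MI libraries, against 17.7 ± 1.28% in sham libraries at 1 day (exact permutation p = 0.1). Their share at 8 weeks was 37.8 ± 7.95% of the summed ligand level in MI libraries, against 17.7 ± 3.3% in sham libraries (exact permutation p = 0.1). Monocyte chemoattractant proteins held 15.4 ± 1.93% of the summed ligand level in MI libraries, against 6.35 ± 1.43% in sham libraries at 8 weeks (exact permutation p = 0.1).

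**Figure D4:**
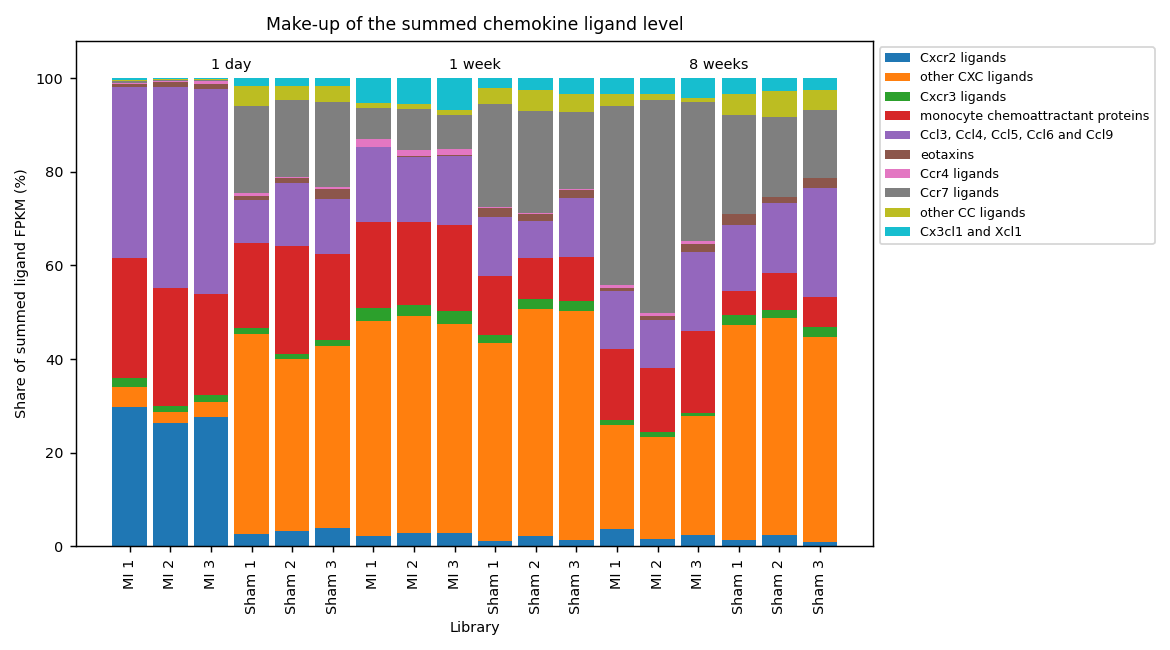
Share of each group of ligands in the summed ligand FPKM (percent, stacked bars) in 18 libraries, MI left of sham within each stage. In MI at 1 day the Cxcr2 ligands, monocyte chemoattractant proteins and the group of Ccl3, Ccl4, Ccl5, Ccl6 and Ccl9 fill most of each bar, and in MI at 8 weeks the Ccr7 ligands (37.8 ± 7.95%) are wider than in sham (17.7 ± 3.30%).

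Many members lie in 2 gene clusters of chromosome 11 and in 1 of chromosome 5 (mm10, positions from RefSeq GRCm38.p6), and neighbours did not always share a stage. In the first cluster Ccl2 (chr11:82035577-82037452), Ccl7 (chr11:82045712-82047525), Ccl11 (chr11:82057832-82062955) and Ccl12 (chr11:82101845-82103399) had their highest MI mean at 1 day, and Ccl8 (chr11:82115185-82116799) at 8 weeks, or at 1 week without MI 8-week library 3. In the second cluster Ccl9 (chr11:83572917-83578636), Ccl6 (chr11:83587886-83593087), Ccl3 (chr11:83647843-83649378) and Ccl4 (chr11:83648624-83664683) had it at 1 day, and Ccl5 (chr11:83525778-83530518) at 1 week. On chromosome 5, Cxcl5 (chr5:90759298-90761625), Cxcl1 (chr5:90891245-90893121) and Cxcl2 (chr5:90903899-90905938) had it at 1 day, with the lung gene Cxcl15 (chr5:90794534-90803067) between Cxcl5 and Cxcl1. The receptors Ccr1 (chr9:123962126-123968692) and Ccr2 (chr9:124101918-124109140) lie together on chromosome 9.

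Genes that act downstream of the receptors were counted from lists of textbook members. Of all genes tested, 39.7%, 72.8% and 70.4% were higher in MI in the order 1 day, 1 week, 8 weeks. The shares of each list called higher stand beside these. The signalling list held 33 tested genes, among them Gnai2, an inhibitory G protein subunit through which chemokine receptors signal, and the small GTPases Rac1, Cdc42 and Rhoa. The 1-day comparison called 31 of them higher in MI and 1 lower, the 1-week comparison 32 higher and 1 lower, and the 8-week comparison 31 higher and 1 lower, so that 93.9%, 97.0% and 93.9% were higher in stage order. The median log2 difference of the signalling list was 1.20 at 1 day, 1.87 at 1 week and 1.19 at 8 weeks, where all genes tested had 0.09, 0.79 and 0.52 at these stages. Gnai2 averaged 229.7 ± 6.31 FPKM in MI and 71.1 ± 5.23 FPKM in sham at 1 week (SD, n = 3 each). Of 12 tested genes that shut the receptors off (beta-arrestins, receptor kinases and RGS proteins), the 1-day comparison called 9 higher in MI and 0 lower. The 1-week comparison called 12 higher and 0 lower, and the 8-week comparison 10 higher and 1 lower. The shares higher were 75%, 100% and 83.3% in stage order, nearer to those of all genes at the later stages. Medians of this list were 0.89, 1.44 and 1.00 in stage order. Arrb2, a beta-arrestin, averaged 37.8 ± 1.99 FPKM in MI and 3.6 ± 0.255 FPKM in sham at 1 week (SD, n = 3 each).

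Of 12 tested genes of NF-kB and its feedback targets, 12 were higher at 1 day (median 1.82), 12 at 1 week (median 1.36) and 11 at 8 weeks (median 1.13), which is 100%, 100% and 91.7% beside the 39.7%, 72.8% and 70.4% of all genes tested. Nfkbia, the inhibitor that NF-kB induces, averaged 84.3 ± 17.9 FPKM in MI and 13.2 ± 2.97 FPKM in sham at 1 day (SD, n = 3 each). Of 10 tested genes of the interferon gamma axis, 8 were called higher in MI and 2 lower 1 day after the operation. The 1-week calls were 8 higher and 1 lower, and the 8-week calls 7 higher and 0 lower. The shares higher were 80%, 80% and 70% in stage order, so at the later stages the axis was close to all genes tested. Medians of this axis were 0.72, 1.45 and 0.85 in stage order. Of 11 tested proteases that cut chemokines or shed them from membranes, 8 were higher and 1 lower at 1 day, and 10 were higher at 1 week and at 8 weeks (72.7%, 90.9% and 90.9% in stage order), with medians of 1.16, 1.68 and 1.92. Adam10, a sheddase of Cx3cl1 and Cxcl16, averaged 45.8 ± 3.03 FPKM in MI and 10.1 ± 0.97 FPKM in sham at 1 week (SD, n = 3 each).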

How the data were processed

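Per the labels, mRNA was sequenced from left ventricles of 18 libraries (6 groups of 3). The deposited FPKM values were made by the authors from TruSeq libraries with, per the submitters' processing notes, TopHat2 2.0.13, Bowtie2 2.2.3 and Cufflinks 2.2.1 on mm10. Their strand setting is not given in the sources used here. Cxcl10 (with Art3), Cxcl16 (with Zmynd15), Cxcr6 (with Fyco1), Ccl5, Ccl6, Cx3cl1 and Cx3cr1 also overlap a gene model on the opposite strand. Reads of those overlaps could not be assigned with certainty either. The same table holds 18 per-library log2 columns, group means, SDs, fold changes and p-values of the authors, which were not used, nor was the small RNA file. In total 32 rows without a symbol were left out.

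Values were tested as log2(FPKM + 1) with limma 3.58.1 (R 4.3.3), in a model of all 6 groups with an intensity trend, on the 12858 genes that reached 1 FPKM in 3 or more libraries. The pseudocount understates fold changes of low genes. P-values were adjusted over all genes tested (Benjamini-Hochberg), with a threshold of 0.05, and the code was tested on simulated data. An exact permutation test of 3 against 3 libraries cannot give a p below 0.1. The MI effect was compared between stages by the difference of differences.

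Depth was read from steps in low FPKM values: it lay at 0.836 to 1.15 of that of sham 1-day library 1, with 56.9 to 66.4% of low values within 0.1 of a whole number of fragments, too few to recover counts, so no count test was run. Such steps give depth only up to a factor of 2, and the smallest factor that fitted nearly as well as the best was taken. A doubled factor fitted as well or better in every library, so this range is uncertain. Alternatives were a pseudocount of 0.1, no filter, a mean of at least 5 FPKM, median-ratio scaling, quantile normalization, no intensity trend, each stage fitted alone, the replicate block, leaving out each library, and, chosen after seeing the data, leaving out MI 8-week libraries 2 and 3.

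The values of 1 tested member that enters the counts are not reported here. Members and lists were chosen with earlier results of these data known. Values per library are given for members with a group mean of at least 5 FPKM in at least 1 group, and for receptors with at least 1 FPKM. Other members are given by range and counts, and of other lists up to 4 genes with the largest mean FPKM are named. Values of Ccl22, Xcl1, Cxcl9, Cxcl11, Cxcl15, Ager and Nkx2-1 fall outside this rule and were chosen after their values were seen.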

Additional observations from a re-analysis of the deposited data

Results flagged for a closer look

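The MI effect differed between 1 day and 1 week for 32 of the 40 tested members and between 1 week and 8 weeks for 18, by the difference of differences in limma. Of all genes tested, 60.0% had a larger and 11.8% a smaller effect in the first interval, and 17.1% and 29.9% in the second. A changed effect was thus common among all genes, but its direction in the first interval differed by value. There 17 of the 40 members had a larger and 15 a smaller effect, with a median change of -0.01 (0.56 for all genes tested). In the second interval 7 had a larger and 11 a smaller effect, with a median change of -0.25 (-0.20 for all genes tested). In 3 members the groups were called in opposite directions at 1 day and at 1 week. Cxcl12 was lower in MI at 1 day (-0.50) and higher in MI at 1 week (1.69), a difference of 2.19 ± 0.29 SE, limma adjusted p = 9.92e-06, and its 1-day call was lost under 14 alternatives. Ackr4 was also lower in MI at 1 day (-0.68) and higher in MI at 1 week (2.23), a difference of 2.92 ± 0.22 SE, limma adjusted p = 4.7e-08. Ackr3 was higher in MI at 1 day (0.68) and lower in MI at 1 week (-1.03), a difference of -1.71 ± 0.15 SE, limma adjusted p = 1.41e-07. Cxcl15, which was in no comparison, had 11.6 FPKM in MI 8-week library 2, where the next highest of the 18 libraries had 0.0686 FPKM.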

How the results depend on the processing

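Of 185 results for single members (37 members in 5 comparisons), 127 kept their direction and their side of the threshold under every alternative run and 58 did not under at least 1. With a mean of at least 5 FPKM, which tests fewer genes, 3 members were lower at 1 day (5 in the deposited scaling with the lower filter), 21 higher at 1 week (32), 23 higher at 8 weeks (35), 9 had a larger effect at 1 week than at 1 day (17), and 4 a larger (7) and 6 a smaller effect (11) at 8 weeks than at 1 week. Median-ratio scaling called 6 members lower at 1 week (1), 2 lower at 8 weeks (0) and 11 with a larger effect at 1 week than at 1 day (17). Quantile normalization called 7 lower at 1 week and 2 lower at 8 weeks. Without MI 8-week libraries 2 and 3, chosen after seeing the data, 2 were lower at 1 week, 1 was lower at 8 weeks and 17 had a smaller effect at 8 weeks than at 1 week. A pseudocount of 0.1 gave 5 in that last count (11). The causes were not tested.

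Ccl21c at 1 week turned to -0.57 with median-ratio scaling and -0.64 with quantile normalization (0.22 as deposited). With quantile normalization Ccl27a at 8 weeks turned to -0.024 (0.64) and Ackr2 at 1 week to -0.026 (0.74). Leaving out each library in turn, the members higher in MI numbered 27 to 31 (1 day), 29 to 32 (1 week) and 34 to 37 (8 weeks), and those lower in MI 4 to 5, 1 to 1 and 0 to 0 in the same order. From 1 day to 1 week 16 to 18 had a larger and 15 to 16 a smaller effect, and from 1 week to 8 weeks 5 to 10 a larger and 8 to 15 a smaller one. Of the 33 shares of the ligand pool, 31 kept their direction without each library of their stage. Those of the other CXC ligands at 1 week (-0.89 percentage points with all libraries, -3.04 to 0.28) and of the Ccr4 ligands at 1 day (0.079, -0.044 to 0.165) did not. Each stage fitted alone gives no difference between stages.

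Replicate numbers were shared between groups but same-numbered MI and sham libraries did not deviate together (correlations of -0.09 to 0.29), so the numbers were not taken as pairs. With the replicate block the 1-day comparison called 30 higher and 4 lower in MI, the 1-week comparison 32 and 1, and the 8-week comparison 36 and 0, while the larger and smaller effects between stages numbered 17 and 16, then 7 and 11. Besides counts, the block changed 3 calls of single members, Cxcl12 at 1 day (lost), Ccl24 at 8 weeks (gained) and Cxcl14 between 1 day and 1 week (gained). With no filter on low genes, limma called 5, 9 and 5 of the 14 members outside the test higher in MI in stage order, and 2, 0 and 0 lower (34.3%, 66.0% and 64.8% of 16413 genes were higher). The unknown number of animals per library limits what the p-values cover.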

Other observations

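Several proteins of the chemokine system carry other symbols and fall outside the rule by name. Of 7 such genes tested, the 1-day comparison called 5 higher in MI and 0 lower, and the later comparisons 6 higher and 0 lower each (71.4% higher at 1 day and 85.7% later, where 39.7%, 72.8% and 70.4% of all genes tested were higher). Medians in stage order were 1.66, 1.09 and 1.38 on the log2 scale. Several of the later calls were lost under other scalings, as given below for each gene. Pf4 (Cxcl4), a platelet granule chemokine, had 51.9, 86.4 and 74.4 FPKM in the MI libraries, against 11.5, 14.7 and 17.4 FPKM in the sham libraries at 1 day. Its 8-week values were 26.8, 40.3 and 68.6 FPKM in MI and 11.5, 11.8 and 11.7 FPKM in sham libraries. The log2 difference of Pf4 was 1.41 ± 0.29 (SE, limma adjusted p = 0.00029) at 1 week and 1.76 ± 0.29 (SE, limma adjusted p = 5.94e-05) at 8 weeks, and the 1-week call was lost with median-ratio scaling (0.48, limma adjusted p = 0.0686). Macrophages are also known to express Pf4. Ppbp (Cxcl7), the other platelet chemokine and a ligand of Cxcr2, had 15.9, 39.4 and 34.3 FPKM in the MI libraries, against 1.17, 1.44 and 1.14 FPKM in the sham libraries at 1 day, a difference of 3.69 ± 0.26 (SE, limma adjusted p = 6.34e-09), and was named after its values were seen. The 1-week call of Ppbp (0.58, limma adjusted p = 0.0481) was lost under both other scalings, with either other filter, with the replicate block and without several single libraries. Its 8-week call (0.78, limma adjusted p = 0.0133) was lost under both other scalings and without MI 8-week library 3 or sham 8-week library 2.

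Mif, a cytokine that binds Cxcr2 and Cxcr4, was the most abundant gene of this list, with 308, 283 and 296 FPKM in the MI libraries, against 76.9, 70.6 and 71.3 FPKM in the sham libraries at 1 day. Its log2 difference was 0.84 ± 0.07 (SE, limma adjusted p = 1.14e-08) at 1 week and 0.54 ± 0.07 (SE, limma adjusted p = 4.1e-06) at 8 weeks, and with median-ratio scaling it turned to -0.12 (limma adjusted p = 0.38) and -0.19 (limma adjusted p = 0.174), with no call. The 8-week call of Mif was also lost with quantile normalization (0.14, limma adjusted p = 0.169). Rarres2 (chemerin), an attractant of macrophages and dendritic cells, had 47.9, 86.6 and 205 FPKM in the MI libraries, against 10.6, 12 and 11.7 FPKM in the sham libraries at 8 weeks, a difference of 2.95 ± 0.33 (SE, limma adjusted p = 1.49e-06). Adipocyte, mesothelial, macrophage and fibroblast sums rose in that order of MI libraries too, and neutrophil, endothelial and cardiomyocyte sums did not. The adipocyte sums were 65.5, 390.2 and 1487 FPKM, and the part of these markers in the Rarres2 level was not tested. The 1-week call of Rarres2 (1.41, limma adjusted p = 0.000873) was lost with median-ratio scaling (0.48, limma adjusted p = 0.122). Cmklr1, the chemerin receptor, had 30.5, 24 and 23.9 FPKM in the MI libraries, against 5.25, 3.4 and 4.36 FPKM in the sham libraries at 1 week, a difference of 2.35 ± 0.28 (SE, limma adjusted p = 9.94e-07).

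Of 4 tested genes of the lymphotoxin pathway that organise lymphoid tissue, 4 were higher in MI at each stage, a count that stands beside 39.7%, 72.8% and 70.4% of all genes tested. Ltbr, the lymphotoxin receptor of stromal cells, averaged 20.0 ± 5.38 FPKM in MI and 7.58 ± 0.207 FPKM in sham at 8 weeks (SD, n = 3 each). Ltb, a lymphotoxin subunit of lymphocytes, had 1.59, 2.6 and 5.42 FPKM in the MI libraries, against 0.119, 0.315 and 0.033 FPKM in the sham libraries at 8 weeks, a difference of 1.77 ± 0.30 (SE, limma adjusted p = 6.39e-05).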
